A study of Mus musculus with 15 samples.

Results

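The genes described here encode the aminoacyl-tRNA synthetases, the enzymes that attach each amino acid to its transfer RNA. They were chosen by name, as 20 enzymes of the cytosol and 16 of the mitochondrion. A gene counted as a member where the array annotation gave a probe set that symbol alone, or its current form (Mars stands as Mars1), and of several such probe sets the one brightest on average stood for the gene. Of the 36 genes 35 had such a probe set, 19 cytosolic and all 16 mitochondrial, out of 18194 genes on the arrays, and Dars was not analysed here. A gene was tested where its signal passed a floor of 20 (4.32 on the log2 scale) on at least 6 arrays, which held for 34 members, 19 cytosolic and 15 mitochondrial, and for 9257 genes in all. Mars2, the mitochondrial methionyl enzyme, was under the floor in every mouse, between 3.56 and 4.29.

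Colon scrapings came from male C57BL/6 mice, an inbred laboratory strain, labelled as 11 weeks old. All ate a high-fat, low-calcium diet for 14 days, with 40% of its energy as fat. The 6 control mice ate it without heme, and the 9 heme mice ate it with heme, the iron porphyrin of red meat, at 0.5 umol per g. Each mouse was hybridised to its own array, so the replicates are animals, and control replicate 5 was not analysed here. The comparison addresses, per the title of the series, how heme in the diet drives renewal of the colon epithelium.

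A synthetase reads an amino acid and its transfer RNA, joins them, and so fixes the meaning of the genetic code. Cells carry separate nuclear genes for most cytosolic and mitochondrial enzymes, while Gars and Kars serve both compartments from 1 gene each. In the cytosol several synthetases sit together in the multi-synthetase complex, held by the scaffold proteins Aimp1, Aimp2 and Eef1e1. Many cytosolic synthetases are known targets of Atf4, the transcription factor of the amino acid response, and Wars is also known as an interferon-induced gene.

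Markers of the colon epithelium were all measured, 10 of 10, at a mean between 12.61 and 12.86 on the log2 scale in every mouse. Markers of endothelium (5) and of nerve and glia (6) had no tested gene. Of 10 smooth muscle markers 5 were tested and all 5 were lower with heme, while Des, Cnn1, Smtn, Lmod1 and Synm were not tested. The mean of the 5 ran from 5.86 to 9.45 in control mice and from 4.51 to 6.36 in heme mice. In scrapings, fewer cells of a type and less RNA per cell cannot be told apart. Control mouse 2 was the richest in smooth muscle markers, control mouse 4 the lowest in the 3 distal Hox genes (3.19, against 6.81 to 8.94 in all other mice), and heme mouse 6 the highest in interferon-induced genes. Goblet and enteroendocrine markers were each lower for 4 of 6, none of 6 tested stromal markers was called, and of 9 immune markers 2 were tested and Ptprc was lower. The part of these cell types in the synthetase values was not tested. Array medians ran from 3.11 to 3.24, and the number of arrays limits the precision.

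Cytosolic synthetase genes were mostly higher in heme mice, by 1.15-fold to 1.85-fold, and mitochondrial ones mostly did not pass the test. Of 19 tested cytosolic genes 12 were higher and 1 was lower where limma's adjusted p (Benjamini-Hochberg, all tested genes) fell under 0.05. Of all tested genes 53.6% passed, 27.2% higher and 26.4% lower. Of 15 tested mitochondrial genes 4 were higher and 1 lower, a share of higher genes close to that background, and with averaged probe sets 6 were higher. The median log2 difference was 0.27 for the cytosolic and 0.08 for the mitochondrial genes, beside -0.01 for all tested genes. All 9 heme mice lay above all 6 controls in 6 cytosolic genes and 1 mitochondrial gene, where 11.2% of all tested genes did. No member had all heme mice below all controls, which held for 8.93% of all tested genes. The mitochondrial genes had the lower signal, with a mean of 6.70 in control mice against 8.90 for the cytosolic ones. The difference between the compartments, and the part of signal level in it, was not tested. Without control mice 2 and 4 and heme mouse 6 the counts were 11 higher and 1 lower in the cytosol and 4 higher in the mitochondrion. With the smooth muscle level as a covariate they were 8 higher and 1 lower in the cytosol, and 2 higher and 2 lower in the mitochondrion. The counts of all tested genes also fell in that fit, to 1766 higher and 1744 lower, against 2516 and 2445 without the covariate.

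**Figure D1:**
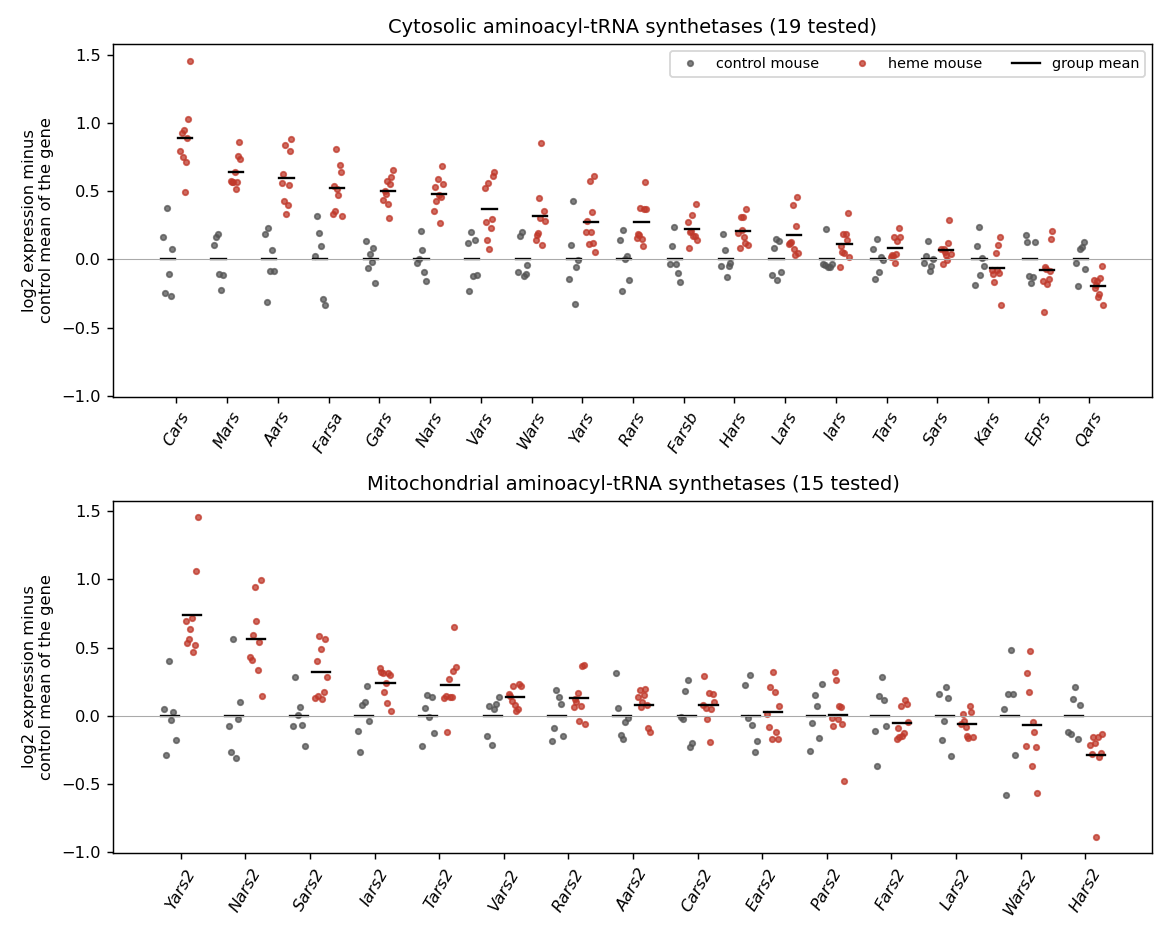
Log2 expression of each tested synthetase gene in every mouse, minus the control mean of that gene, for cytosolic enzymes (upper panel) and mitochondrial enzymes (lower panel). Points are the 6 control mice (grey) and 9 heme mice (red) and black lines are group means; the 9 red points lie above all grey points for Cars, Mars, Aars, Farsa, Gars and Nars and, in the lower panel, for Yars2.

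Cars, which charges cysteine, had the largest rise with the probe sets used here. Its lowest, median and highest log2 values were 5.76, 6.01 and 6.40 in control mice and 6.52, 6.91 and 7.48 in heme mice. The groups did not overlap, with heme mouse 9 the highest and heme mouse 5 the nearest to the controls. The log2 difference was 0.89 ± 0.13 (SE, adjusted p = 4.48e-05, limma), or 1.85-fold. Averaged with its second probe set, which lies under the floor, Cars was at 0.52 (adjusted p = 6.4e-05, limma), below Mars at 0.64.

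Mars, which charges methionine, including that of the initiator transfer RNA, ran from 8.09 to 8.50 in control mice (median 8.32) and from 8.84 to 9.18 in heme mice (median 8.90). No heme mouse reached the control range, and the difference was 0.64 ± 0.08 (adjusted p = 6.21e-06, limma). Mars had the lowest adjusted p of the 34 tested members.

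Aars, which charges alanine, lay at 8.58, 8.89 and 9.13 (lowest, median and highest) in control mice and at 9.23, 9.46 and 9.78 in heme mice. Its difference was 0.60 ± 0.10 (adjusted p = 0.000175, limma), again with no overlap, and its second probe set gave 0.48. Aars is a textbook Atf4 target, and the stretch before its transcription start is shown because it held all 3 motifs searched. These were the C/EBP-ATF response element (TGATGNAA), the E-box bound by Myc and its relatives (CACGTG) and the antioxidant response element (TGACNNNGC). Both strands were read over the 250 bases before each start, and a motif may overlap another. The sequence is from RefSeq (GRCm38.p6), chr8:111033676-111033841, plus strand, with the E-box, the response element on the opposite strand and the antioxidant element in capitals in that order.
Aars: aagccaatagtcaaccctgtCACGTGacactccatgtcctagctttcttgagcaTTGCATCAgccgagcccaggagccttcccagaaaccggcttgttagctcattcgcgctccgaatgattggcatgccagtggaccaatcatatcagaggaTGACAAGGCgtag

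Farsa encodes the alpha subunit of the phenylalanyl enzyme and Farsb its beta subunit. Farsa ran from 6.85 to 7.50 in control mice (median 7.24) and from 7.50 to 7.99 in heme mice (median 7.70), with no overlap but a gap of less than 0.01 between control mouse 2 and heme mouse 9. The difference was 0.52 ± 0.11 (adjusted p = 0.000774, limma). Farsb was also higher, by 0.22 ± 0.07 (adjusted p = 0.0107, limma), with 3 of 9 heme mice above all controls. Its 3 probe sets over the floor gave 0.13 to 0.25.

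Gars, the glycyl enzyme of both compartments, ran from 9.48 to 9.79 in control mice (median 9.67) and from 9.96 to 10.31 in heme mice (median 10.15). The groups did not overlap, and the difference was 0.50 ± 0.06 (adjusted p = 1.13e-05, limma). Kars, the lysyl enzyme that also serves both compartments, did not separate the groups. It lay at 9.72 to 10.14 in control mice (median 9.88) and 9.57 to 10.07 in heme mice (median 9.82), a difference of -0.06 ± 0.08 with a 95% interval of -0.23 to 0.11 (adjusted p = 0.538, limma).

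Nars, which charges asparagine, ran from 10.58 to 10.94 in control mice (median 10.73) and from 11.01 to 11.42 in heme mice (median 11.21). Again no heme mouse fell within the control range, and the difference was 0.48 ± 0.07 (adjusted p = 4.2e-05, limma). The second probe set of Nars gave 0.37.

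Vars, the valyl enzyme, lay at 5.81, 6.04 and 6.24 in control mice and at 6.12, 6.34 and 6.68 in heme mice. The ranges overlapped, with 7 of 9 heme mice above all controls, and the difference was 0.37 ± 0.10 (adjusted p = 0.00619, limma). Fitted beside the smooth muscle level it was 0.35 and did not pass (adjusted p = 0.0941, limma). Besides Wars, described further on, the other cytosolic genes that rose were Rars for arginine (0.27 ± 0.08), Hars for histidine (0.21 ± 0.06) and Yars for tyrosine (0.28 ± 0.11). Rars did not pass beside the smooth muscle level, at 0.18 (adjusted p = 0.281, limma). Yars was the least certain, with an adjusted p of 0.0478 (limma) and 2 of 9 heme mice above all controls. Its call was lost when any 1 of control mice 1, 4, 6 or 7 or of heme mice 1, 2, 4, 5, 6 or 8 was left out, at values from 0.21 to 0.29.

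Qars, which charges glutamine, was the only cytosolic synthetase called lower. It ran from 10.29 to 10.62 in control mice (median 10.51) and from 10.16 to 10.44 in heme mice (median 10.30), with 4 of 9 heme mice below all controls. The difference was -0.19 ± 0.06 (adjusted p = 0.0112, limma), and its 3 probe sets over the floor all gave a fall, between -0.23 and -0.19. The mitochondrion has no glutaminyl synthetase of its own in mammals and makes its glutaminyl-tRNA with an amidotransferase. Qrsl1, the catalytic subunit of that amidotransferase, rose by 0.40 ± 0.07 (adjusted p = 0.000269, limma), and its groups did not overlap.

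**Figure D2:**
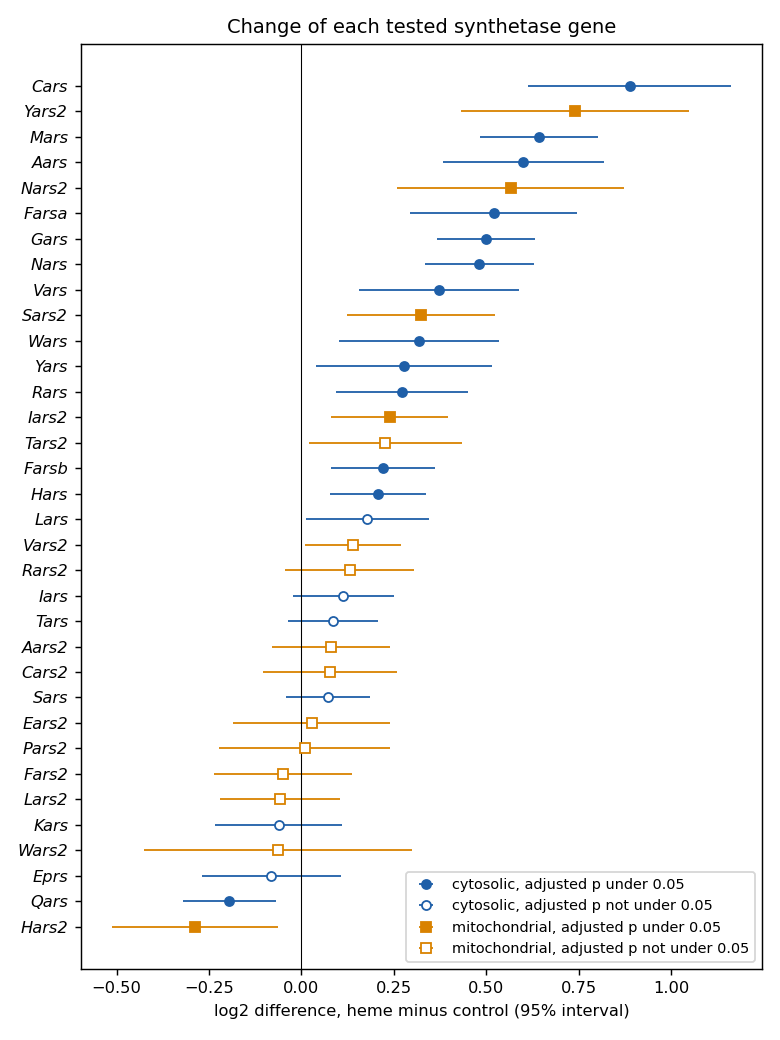
Log2 difference between heme (9 mice) and control (6 mice) for each of the 34 tested synthetase genes with its 95% interval from limma. Circles are cytosolic and squares mitochondrial enzymes, filled where the adjusted p was under 0.05; values run from -0.29 for Hars2 to 0.89 for Cars.

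The 6 cytosolic genes that were not called lay between -0.08 and 0.18. They were Lars (leucine, 0.18 ± 0.08), Iars (isoleucine, 0.11 ± 0.06), Tars (threonine, 0.09 ± 0.06), Sars (serine, 0.07 ± 0.05), Kars and Eprs, the fused glutamyl and prolyl enzyme (-0.08 ± 0.09). Their 95% intervals reached from -0.27 at the lowest to 0.35 at the highest. The 3 probe sets of Eprs over the floor differed in sign, from -0.08 to 0.07. Iars and Lars were called without control mouse 3, at 0.16 and 0.21, Lars also with arrays centred on their medians (0.18), and this mouse was the highest control in 14 of the 19 cytosolic genes. Among heme mice, mouse 8 was the highest in 12 of the 19. Without control mouse 3 the cytosolic count was 14 higher, and without heme mouse 8 it was 11.

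The cytosolic genes can also be split by the multi-synthetase complex. Of its 7 measured members, Mars and Rars were higher, Qars was lower, and Eprs, Iars, Lars and Kars were not called, with a median difference of 0.11. Of the 12 cytosolic genes outside it 10 were higher, with a median of 0.35. The share of higher genes was 28.6% in the complex, close to the 27.2% of all tested genes, and 83.3% outside it. This split was looked at after the values were known and its difference was not tested. Over all alternatives the complex counted 1 to 4 higher genes and the others 6 to 10. The scaffolds went different ways. Eef1e1 rose by 0.33 ± 0.06 (adjusted p = 0.000451, limma), Aimp1 fell by 0.16 ± 0.06 (adjusted p = 0.0403, limma), and Aimp2 was at 0.12 ± 0.08 and not called. By structural class, 6 of 10 class I cytosolic genes were higher (60%) and 1 was lower, with a median of 0.27. Of 9 class II genes 6 were higher (66.7%) and 0 lower, with a median of 0.22. Of all tested genes 27.2% were higher and 26.4% lower.

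Wars, which charges tryptophan, lay at 9.65, 9.71 and 9.98 in control mice and at 9.89, 10.06 and 10.63 in heme mice. The difference was 0.32 ± 0.10 (adjusted p = 0.0156, limma), with 5 of 9 heme mice above all controls, and its 4 probe sets gave 0.32 to 0.54. The value of 10.63 was that of heme mouse 6, and the other 8 heme mice reached at most 10.23. Interferon-induced genes went the other way, with 5 of 10 tested lower and a median of -0.98, such as Ifit1 (-2.57 ± 0.49), Ido1, which breaks tryptophan down (-2.36 ± 0.64), and the immunoproteasome subunit Psmb8 (-1.91 ± 0.49). The mean of these 10 genes was 8.29 in heme mouse 6, 5.12 to 5.88 in the other heme mice and 6.85 to 7.37 in controls. Without heme mouse 6 Wars was at 0.25 ± 0.07 (adjusted p = 0.0094, limma). Fitted beside the smooth muscle level Wars was at 0.35 (adjusted p = 0.0978, limma).

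**Figure D3:**
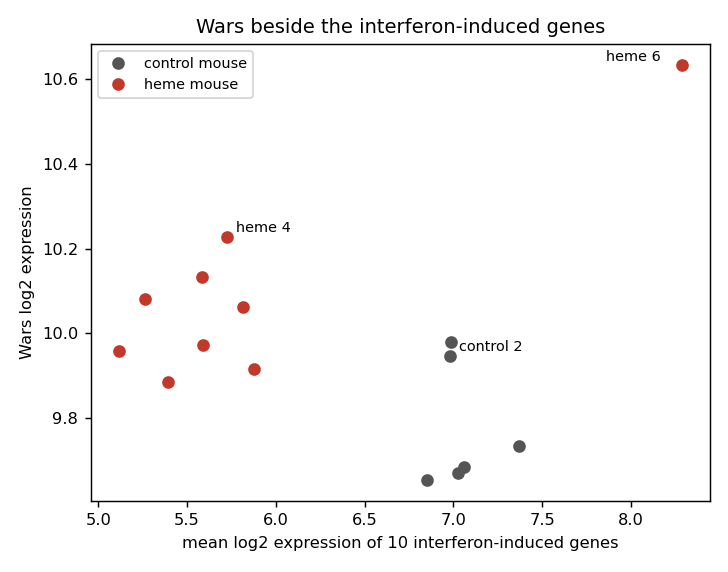
Wars log2 expression (vertical) against the mean log2 expression of 10 interferon-induced genes (horizontal) in each of the 15 mice, control in grey and heme in red. Heme mouse 6 stands at 10.63 and 8.29, while the other 8 heme mice lie at 5.12 to 5.88 on the horizontal axis and the controls at 6.85 to 7.37.

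Among mitochondrial enzymes Yars2, which charges tyrosine, rose most. It ran from 6.79 to 7.48 in control mice (median 7.08) and from 7.54 to 8.53 in heme mice (median 7.71). The groups did not overlap, with heme mouse 9 the highest. The difference was 0.74 ± 0.14 (adjusted p = 0.000542, limma), and a second probe set gave 0.67.

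Nars2, the mitochondrial asparaginyl enzyme, lay at 4.95, 5.21 and 5.82 in control mice and at 5.40, 5.80 and 6.25 in heme mice, with 4 of 9 heme mice above all controls, a difference of 0.57 ± 0.14 (adjusted p = 0.0039, limma). Control mouse 3 was among the heme mice, and beside the smooth muscle level the difference was 0.47 (adjusted p = 0.113, limma). Sars2, the seryl enzyme, ran from 5.36 to 5.86 in control mice (median 5.55) and from 5.70 to 6.16 in heme mice (median 5.86), with 4 of 9 heme mice above all controls. It rose by 0.32 ± 0.09 (adjusted p = 0.00913, limma). Iars2, the isoleucyl enzyme, ran from 9.18 to 9.67 in control mice (median 9.47) and from 9.48 to 9.79 in heme mice (median 9.74). It rose by 0.24 ± 0.07 (adjusted p = 0.0138, limma), which beside the smooth muscle level was 0.13 and not called (adjusted p = 0.391, limma).

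Hars2, the mitochondrial histidyl enzyme, was the member with the largest fall. It lay at 6.24, 6.39 and 6.62 in control mice and at 5.52, 6.20 and 6.27 in heme mice, where the lowest value is that of heme mouse 5. The difference was -0.29 ± 0.11 (adjusted p = 0.0301, limma), with 6 of 9 heme mice below all controls. Its second probe set gave -0.10 and was not called. The call was lost without control mouse 3, 4 or 7, each left out singly, at values from -0.27 to -0.25. Hars, the histidyl enzyme of the cytosol, was higher instead, from 9.85 to 10.17 in control mice (median 9.95) and 10.07 to 10.35 in heme mice (median 10.18).

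The other 10 mitochondrial genes were not called. Tars2 (threonine, 0.23 ± 0.10), Vars2 (valine, 0.14 ± 0.06) and Rars2 (arginine, 0.13 ± 0.08) were the highest of them. Aars2, Cars2, Ears2, Pars2, Fars2, Lars2 and Wars2 lay between -0.06 and 0.08. Over these 10 the 95% intervals reached from -0.43 to 0.43. Wars2, beside the rise of Wars, ran from 4.71 to 5.77 in control mice (median 5.39) and from 4.73 to 5.76 in heme mice (median 5.17). Its difference was -0.06 ± 0.17 (adjusted p = 0.772, limma), and beside the smooth muscle level it was -0.69 (adjusted p = 0.00429, limma). Fars2 and Lars2 each had a second probe set over the floor with the other sign, at 0.20 and 0.06, neither called. The probe sets of Cars2 disagreed in size. The brighter one, used here, gave 0.08, and another over the floor gave 0.51 ± 0.09 (adjusted p = 0.000229, limma over all probe sets over the floor).

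Genes were set side by side for the same amino acid, with Fars2 beside both Farsa and Farsb, and Ears2 beside Eprs. Counted with its sign, the log2 difference was higher for the cytosolic gene in 9 of 15 comparisons. In 8 the cytosolic gene alone was called higher, in 2 (Iars and Sars) the mitochondrial gene alone, and in 2 (Nars and Yars) both. With the probe sets used here the widest gap was in cysteine. Cars minus Cars2 within a mouse ran from -1.03 to -0.38 in control mice and from -0.33 to 0.70 in heme mice, and with these probe sets this was the only comparison whose groups did not overlap. With all probe sets of a gene averaged, Cars was at 0.52 and Cars2 at 0.25, a narrower gap than that of Aars (0.54) and Aars2 (0.08). The second probe set of Fars2 gave 0.20, beside 0.22 for Farsb. For tyrosine the order was turned, with Yars2 at 0.74 and Yars at 0.28. For histidine the genes had opposite signs, 0.21 for Hars and -0.29 for Hars2. These gaps between genes were not tested.

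**Figure D4:**
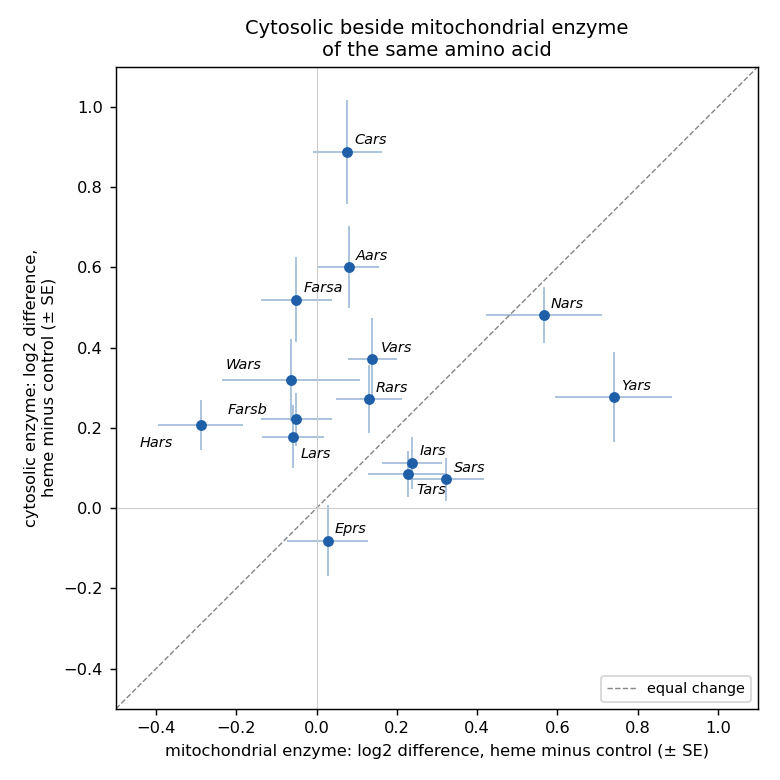
Log2 difference (heme minus control, with its SE) of the mitochondrial enzyme (horizontal) and the cytosolic enzyme (vertical) of the same amino acid, named by the cytosolic gene, with a dashed line of equal change. Cars lies highest at 0.89 against 0.08, and Yars farthest right at 0.28 against 0.74.

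Of 28 listed genes of the amino acid response 21 were tested. Trib3, Chac1, Sesn2, Aldh1l2, Slc7a11, Slc7a5 and Stc2 were not. Of the 21 tested, 15 were higher (71.4%) and 3 lower (14.3%), with a median difference of 0.60. Of all tested genes 27.2% were higher and 26.4% lower. The difference of the response genes from the synthetases was not tested. Phgdh (4.65-fold) and Psat1 (2.05 ± 0.17), which make serine, and the translation inhibitor Eif4ebp1 (1.43 ± 0.13) changed most, with no overlap between the groups. Asns, which makes asparagine, rose by 0.82 ± 0.09 (adjusted p = 2.99e-06, limma). Atf4 itself was at 0.13 ± 0.06 (adjusted p = 0.0800, limma), with 7 of 9 heme mice above all controls, and Ddit3, another factor of that pathway, at -0.05 ± 0.14 (adjusted p = 0.785, limma). The 3 that fell were the glutamine carrier Slc1a5 (-0.94 ± 0.07), Nupr1 (-0.94 ± 0.19) and Cebpg, a partner of Atf4 (-0.20 ± 0.05). The kinases that start this response through eIF2 were not called at the mRNA level in the case of Eif2ak1, the heme-regulated kinase (0.02 ± 0.06), and Eif2ak4, the kinase that senses uncharged transfer RNA (-0.04 ± 0.12). Eif2ak3, the kinase of the endoplasmic reticulum, fell by 0.25 ± 0.10. The eIF2 phosphatase subunits Ppp1r15a (0.36 ± 0.10) and Ppp1r15b (0.29 ± 0.07) rose.

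The response element (TGATGNAA) stood before the start of 3 of 13 cytosolic and 0 of 14 mitochondrial listed genes with a window in the RefSeq promoter table, beside 3.45% of its 32851 windows. Besides Aars these were Gars, which rose, and Tars, which was not called (0.09 ± 0.06), so the element was found in members that moved and in one that did not pass. The E-box stood in 3 of 13 cytosolic windows (Aars, Farsb and Iars) and 0 of 14 mitochondrial ones, beside 6.02% of all windows, and the antioxidant element in 2 of each (Aars and Mars, Aars2 and Lars2), beside 10.2%. The 13 cytosolic windows include that of Dars, which was not analysed. Of the cytosolic genes called higher, Cars, Hars, Nars, Rars, Vars and Wars had no window. A match is a description of letters, not of binding, and the matches shown for Gars, Tars and Mars are on the opposite strand. Shown are the windows of Gars (chr6:55037941-55038000, plus strand) and Tars (chr15:11399659-11399703, minus strand) with the response element in capitals, and those of Farsb (chr1:78488901-78488966, minus strand) and Iars (chr13:49682031-49682096, plus strand) with the E-box in capitals, and of Mars (chr10:127311787-127311855, minus strand) with the antioxidant element in capitals, all GRCm38.p6.
Gars: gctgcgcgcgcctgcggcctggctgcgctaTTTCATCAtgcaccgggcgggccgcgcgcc
Tars: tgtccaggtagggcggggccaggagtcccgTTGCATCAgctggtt
Farsb: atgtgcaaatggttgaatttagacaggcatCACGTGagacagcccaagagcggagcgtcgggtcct
Iars: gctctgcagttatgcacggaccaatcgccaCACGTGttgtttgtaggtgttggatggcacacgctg
Mars: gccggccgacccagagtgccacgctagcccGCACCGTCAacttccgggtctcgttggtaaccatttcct

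Genes of translation were also counted by compartment, with no test between the lists. Of 14 tested genes of mitochondrial translation 8 were higher (57.1%) and 1 lower (7.14%), with a median of 0.28. Among these 14, Ptcd3, Lrpprc and Mto1 (called higher) and Trmu and Gtpbp3 (not called) are not translation factors. The cytosolic list holds factors only, so the lists are unlike in kind. The elongation factors Tsfm (0.79 ± 0.12), Gfm1 (0.67 ± 0.10) and Tufm (0.56 ± 0.11) rose with no overlap, and Guf1 fell by 0.51 ± 0.13. Of 27 cytosolic factors 8 were higher (29.6%) and 7 lower (25.9%), close to the 27.2% and 26.4% of all tested genes. Their median was 0.01. The cap-binding Eif4e (0.45 ± 0.07), the release factor Gspt1 (0.40 ± 0.06) and Eif3b (0.36 ± 0.08) rose, while Eif3f (-0.36 ± 0.05) was the largest of the falls.

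**Figure D5:**
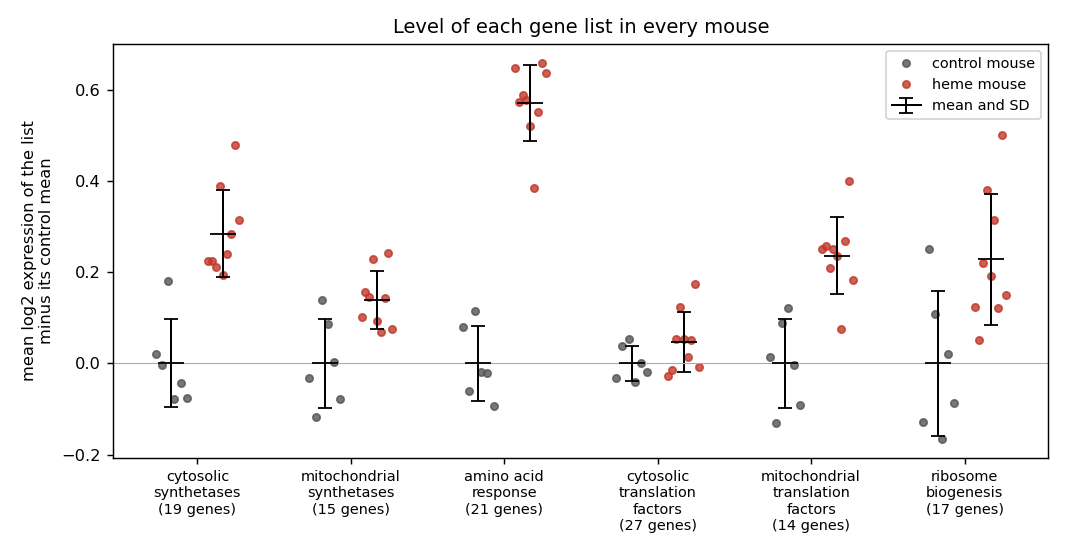
Mean log2 expression of each gene list in every mouse, minus the control mean of that list, with group mean and SD; the 6 control mice are grey and the 9 heme mice red. The level of the 19 cytosolic synthetases ran from 8.83 to 9.08 in control mice and from 9.10 to 9.38 in heme mice, and that of the 15 mitochondrial ones from 6.58 to 6.84 and from 6.77 to 6.94.

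Other genes of tRNA charging counted 4 higher (36.4%) and 1 lower (9.09%) of 11, beside 27.2% and 26.4% of all tested genes. Aarsd1, an editing protein related to alanyl synthetase, rose by 0.85 ± 0.10 (adjusted p = 6.21e-06, limma), from 5.59 to 6.03 in control mice to 6.22 to 6.97 in heme mice. The enzymes that turn seryl-tRNA into selenocysteinyl-tRNA moved apart. Pstk, which acts first, rose by 0.44 ± 0.09, and Sepsecs, which acts after it, fell by 0.45 ± 0.09 (adjusted p = 0.00083 and 0.000734, limma). Ribosome biogenesis genes counted 7 higher of 17 (41.2%), led by Nolc1 (0.64 ± 0.14), Wdr12 (0.51 ± 0.15) and Bop1 (0.43 ± 0.09). Myc, a driver of that list, was at -0.35 ± 0.21 and not called. Proliferation genes, 12 of 12 higher and led by Plk1 (1.83 ± 0.21), Aurka (1.77 ± 0.23) and Rrm2 (1.70 ± 0.15), had a mean of 7.95 to 8.59 in control and 9.29 to 9.71 in heme mice, and their part in the synthetase changes was not tested.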

How the data were processed

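Expression was measured in colon scrapings with 1 Affymetrix mouse array per mouse, 6 control and 9 heme. The authors deposited 1 log2 value per probe set and mouse, computed with GCRMA 2.22.0 per the submitters' processing notes (background correction, normalization and summarising of probes). No detection calls were used. Of 45101 probe sets 34958 had 1 symbol and stood for genes, 932 had several and 9211 were not listed.

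The test was limma 3.58.1 (R 4.3.3, lmFit and eBayes) of heme against control on all 9257 tested genes, two-sided, with Benjamini-Hochberg adjustment. Differences are heme minus control with their SE. The procedure was tested on simulated data. Members, gene lists and tests were chosen with earlier results of these data known. Full values are given for the 8 cytosolic and 5 mitochondrial members with the largest called change and for Wars, Gars, Kars and Wars2. Of each related list (not the cell type markers) up to 3 of the largest called changes and a few set genes are named, and other single values were chosen after they were seen. Alternatives were no filter, a floor of 100, quantile normalization, averaged probe sets, array weights, a robust trended variance, median centring, replicate number as a block, array number or smooth muscle level as covariate, and leaving out mice. Promoter sequences are RefSeq's (GRCm38.p6), with windows for 27 of the 36 listed genes.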

Additional observations from a re-analysis of the deposited data

Results flagged for a closer look

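In 5 of 68 groups (34 tested members in control and in heme mice) 1 mouse stood apart from its group by Dixon's test, where about 1 in 20 is flagged in data with no true outlier. Control mouse 3 had Iars at 9.85, while the remaining controls had 9.57 to 9.59. Sars was at 10.05 in heme mouse 8, against 9.73 to 9.88 in the other heme mice. Wars was at 10.63 in heme mouse 6, against 9.89 to 10.23, in the mouse with the highest interferon-induced genes. Hars2 was at 5.52 in heme mouse 5, against 6.10 to 6.27, and Pars2 was at 4.35 in heme mouse 9, against 4.76 to 5.16.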

How the results depend on the processing

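Of the 18 members called, 8 (Aars, Cars, Farsa, Gars, Mars, Nars, Sars2 and Yars2) passed under every one of the 26 alternatives in which they were tested, and 10 lost their call under at least 1. No called member changed sign. The labels do not say whether mice of the same number are matched. Correlations of their deviations ran from -0.19 to 0.20 over 6 pairs. With the replicate number as a block the cytosolic count was 7 higher and 0 lower (11 and 1 at an unadjusted p under 0.05, limma). Heme mice 5, 8 and 9 have no control of their number, so that fit rests on the 6 pairs alone. The effect of the block and that of losing these mice cannot be told apart in it. The mitochondrial count of lower genes in the fit with the block was 0 (1 unadjusted, limma). Farsb, Hars, Rars, Wars, Yars, Qars, Hars2 and Iars2 lost their calls in that fit. All tested genes counted 2065 higher and 1899 lower in it, against 2516 and 2445 without the block. At a floor of 100 only 7 mitochondrial genes were tested, and Hars2 was not among them. Of these 7, 2 were higher and 0 lower (3 and 0 unadjusted, limma). With averaged probe sets the cytosolic count of lower genes was 0 (1 unadjusted, limma) and 6 mitochondrial genes were higher, with Cars2, Tars2 and Vars2 gaining a call. Tars2 and Vars2 each gained a call under other alternatives too. With the smooth muscle covariate the mitochondrial counts were 2 higher and 2 lower. Without control mice 2 and 4 and heme mouse 6 the mitochondrial count of lower genes was 0 (1 unadjusted, limma). Leaving out 1 mouse at a time gave 11 to 14 higher and 1 lower in the cytosol, and 4 to 5 higher and 0 to 1 lower in the mitochondrion. The median differences then ran from 0.21 to 0.32 and from 0.07 to 0.13. The causes of these shifts were not tested.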
